A study of Mus musculus with 39 samples.

Results

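The 300 widest H3K27ac domains of the Oct4+ population of naive extra-embryonic endoderm (nEnd) were examined, out of 23570 consensus H3K27ac regions of that population. H3K27ac peaks of the 3 Oct4+ libraries were merged, merged regions with a peak in at least 2 libraries were kept as consensus regions, and the domains were selected on their width. They ran from 13950 to 47456 bp with a median of 16950 bp, against a median of 3816 bp over all consensus regions, and held 5.14% of the consensus bases. The widest region left out measured 13915 bp, and the width fell without a step at the limit. H3K27ac in Oct4+ cells chose the domains and is therefore given as a description, without a test.

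H3K27ac marks active enhancers and promoters, H3K4me1 marks active and primed enhancers, H3K27me3 is laid down by Polycomb repressive complexes and H3K9me3 marks heterochromatin. Long stretches of H3K27ac, often called super-enhancers, are known from embryonic stem cells, where many lie beside genes of cell identity. Here the domains are called wide, since they were defined by the extent of listed peaks and not by the binding of factors.

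nEnd cultures of 1 mouse OCT4-mCherry reporter line were profiled by CUT&Tag, in which a transposase tethered to an antibody inserts sequencing adapters beside a histone mark. nEnd is a stem cell culture model of the primitive endoderm. The cultures carried no treatment and were sorted by FACS. Cells were positive for OCT4-mCherry alone (Oct4+), for both OCT4-mCherry and PDGFRA (DP) or for PDGFRA alone (Pdgfra+). The study describes Oct4+ cells as pluripotent cells that de-differentiated in the culture, and DP and Pdgfra+ cells as its endoderm part. With 4 marks and 3 replicates of each population there were 36 libraries. The study calls its replicates biological, while the labels do not say how the libraries of a number were separated, so p-values measure the spread between these libraries.

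The Oct4+ H3K27ac libraries held 38619, 65131 and 8574 peaks (replicates 1, 2 and 3), the DP libraries 10957, 3079 and 12244, and the Pdgfra+ libraries 4792, 7128 and 4861. The peak lists do not give sequencing depth, so a domain without a listed peak may still carry the mark. Within 20 kb of 8 pluripotency marker genes, 7 had an H3K27ac peak in each Oct4+ library, 1 to 4 in DP libraries and 1 or 2 in Pdgfra+ libraries. Of 8 endoderm markers, 7 had one in every Pdgfra+ library and 4 to 7 in DP libraries. In Oct4+ replicates 1, 2 and 3 the counts were 5, 6 and 0, so only the shortest Oct4+ list had none. H3K27me3 was listed at 5, 7 and 7 of the endoderm markers in Oct4+ replicates, 2 in each DP library and 0, 0 and 1 in Pdgfra+. At the pluripotency markers the counts were 0, 1 and 2, 2 in each DP library, and 0, 0 and 2. Of 6 trophectoderm markers, 3, 4 and 0 had an H3K27ac peak in Oct4+ replicates 1, 2 and 3, and 3 to 5 in DP or Pdgfra+ libraries. Of 4 mesoderm markers none had one in DP or Pdgfra+ libraries, and 0, 3 and 0 in Oct4+ replicates. In bulk populations, fewer marked cells and a weaker mark per cell cannot be told apart.

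Sequences are shown for 5 of the domains that the results below return to: Klf2, Tet1 and Esrrb, genes of pluripotency and DNA demethylation with little or no listed H3K27ac in Pdgfra+ cells, and the Mir290-Mir295 cluster and Myh9, with listed H3K27ac in all 9 libraries. Each is 200 bases of the plus strand of GRCm38.p6 (mm10), centred on the highest maximum of an Oct4+ H3K27ac peak in the domain. Capitals mark matches on either strand to 1 of 7 motif strings: ATGCAAAT (octamer), CATTGT (SOX), TCAAGGTCA (ESRRB), GGGTGTGG (KLF), AGATAA (motif of GATA factors), TTCCNGGAA (STAT) and GCCNNNGGC (TFAP2).
Klf2, chr8:72333978-72334177, outside genes: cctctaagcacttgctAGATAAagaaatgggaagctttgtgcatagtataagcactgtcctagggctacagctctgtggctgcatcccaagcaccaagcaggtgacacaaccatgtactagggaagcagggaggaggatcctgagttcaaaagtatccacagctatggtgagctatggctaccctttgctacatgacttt
Mir290-Mir295, chr7:3206663-3206862, outside protein-coding genes: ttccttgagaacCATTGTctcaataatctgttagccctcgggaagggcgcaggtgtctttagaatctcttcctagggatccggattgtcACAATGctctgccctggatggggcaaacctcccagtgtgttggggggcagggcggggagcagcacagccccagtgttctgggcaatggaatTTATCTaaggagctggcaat
Tet1, chr10:62886974-62887173, inside Tet1 and almost wholly intronic: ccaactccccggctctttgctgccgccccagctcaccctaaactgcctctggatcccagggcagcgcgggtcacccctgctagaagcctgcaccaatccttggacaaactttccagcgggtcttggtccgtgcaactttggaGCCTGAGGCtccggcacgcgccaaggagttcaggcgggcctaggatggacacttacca
Esrrb, chr12:86501708-86501907, in an intron of Esrrb: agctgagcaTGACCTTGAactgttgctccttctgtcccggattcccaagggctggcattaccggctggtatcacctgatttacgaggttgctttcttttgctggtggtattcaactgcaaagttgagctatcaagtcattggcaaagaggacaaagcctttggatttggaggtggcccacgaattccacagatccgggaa
Myh9, chr15:77816104-77816303, in an intron of Myh9: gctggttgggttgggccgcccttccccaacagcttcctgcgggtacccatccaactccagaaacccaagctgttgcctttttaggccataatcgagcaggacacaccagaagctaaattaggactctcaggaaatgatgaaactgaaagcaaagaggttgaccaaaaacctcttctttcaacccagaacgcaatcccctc
The Esrrb window held an ESRRB string, the Klf2 window a GATA string, the Tet1 window a TFAP2 string, the Mir290-Mir295 window SOX strings and a GATA string, and no string was found in the Myh9 window.

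Over 400 base windows centred in the same way, the KLF string stood in 10.7% of the domains, 4.67% of the next 300 regions by width and 5.69% of all other consensus regions. The ESRRB string stood in 3% of the domains, 3% of the next 300 and 1.37% of the others, and the TFAP2 string in 26%, 21.3% and 20.5%. Octamer, SOX, GATA and STAT strings stood in 1.67, 15.7, 15.3 and 1.33% of the domains and in 1.86, 16.9, 14.1 and 1.41% of the other regions. These are descriptions of letters in a window, without a test. Repeat-masked sequence made up 22.5% of the domain bases and 22.3% of the bases of the other regions.

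The extent of the domains came mainly from the 2 longer lists. Listed peaks covered 76.2, 87.7 and 33.0% of the domain bases in Oct4+ replicates 1, 2 and 3. Within a library most domains were not 1 unbroken peak, which held for 7 in replicate 1, 30 in replicate 2 and 0 in replicate 3. In 37, 84 and 0 domains a single peak spanned at least 90% of the width, and the widest peak took a median of 48.8, 65.5 and 21.1% of the domain. A peak of replicate 3 was missing from 41 domains, and none lacked a peak of replicate 1 or 2. Chosen again without replicate 3, with a peak needed in both remaining libraries, the 300 widest regions overlapped 281 of the domains. By the same rule they overlapped 164 without replicate 1 and 139 without replicate 2. Membership therefore rests on replicates 1 and 2 for many domains.

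**Figure D1:**
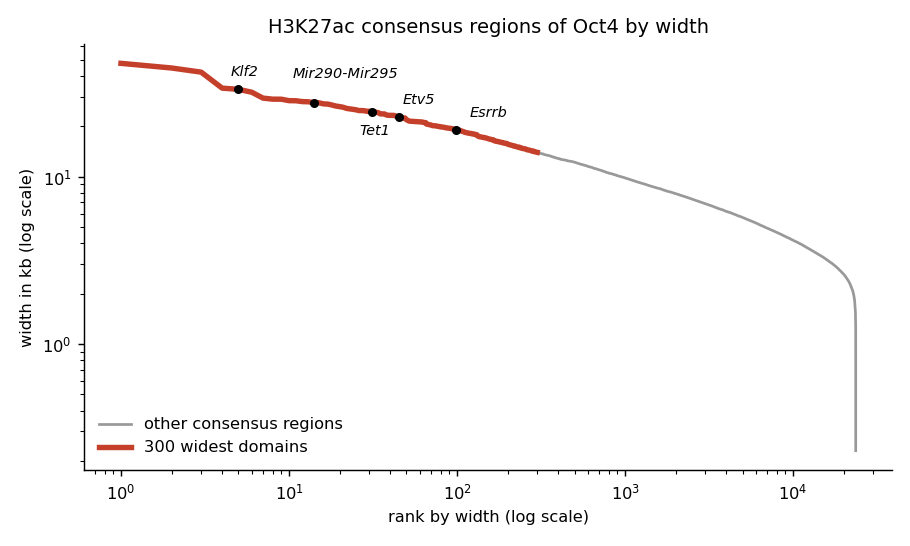
Width in kb against rank by width, both on log scales, for all 23570 consensus H3K27ac regions of Oct4+ cells, with the 300 widest in red and named domains as points. The curve runs smoothly from 47456 bp through the limit at 13950 bp, and Klf2 lies at rank 5, Mir290-Mir295 at 14, Tet1 at 31, Etv5 at 45 and Esrrb at 99.

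Of the 300 domains, 102 (34%) held the annotated start of at least 1 protein-coding gene, 158 lay in a gene body without a start and 40 lay outside protein-coding genes. Starts stood in 27.3% of the next 300 regions and in 26.0% of all consensus regions. The domains held 143 starts in all and 32 domains held 2 or more. By base content they were mostly introns and flanks, with a median of 3.44% exon bases. A neighbour from the same 300 lay within 100 kb of 68 domains, against 62 among the next 300.

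Few genes of the lineage lists lay at the domains. Klf2, a transcription factor of naive pluripotency, was the 1 of 25 pluripotency genes whose start lay within 20 kb of a domain (4%, against 1.62% of all 21938 protein-coding genes). None of 16 formative and primed genes, 25 endoderm genes, 25 trophectoderm genes and 25 signalling genes did. Of 20 genes of chromatin and self-renewal, 4 did (20%): Uhrf1, which maintains DNA methylation, had its start inside a domain, while those of Tet1, a 5-methylcytosine dioxygenase, Suz12, a subunit of Polycomb repressive complex 2, and Smarcad1, a chromatin remodeller, lay 1.25, 5.44 and 13.2 kb away. All of 8 members of the Mir290-Mir295 cluster in the list lay inside 1 domain, out of 13 annotated miRNA genes in the list. These lists were chosen with earlier results of these data known, so the counts are descriptions.

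Other pluripotency genes were near regions of lower rank. The widest region overlapping or within 20 kb of the gene ranked 392 for Nanog (12899 bp), 496 for Sall4 (12213 bp), 640 for Pou5f1 (11306 bp) and 10949 for Sox2 (3975 bp). By this measure 23 of the 25 pluripotency genes had a region, with a median best rank of 3715. So did 20 of 20 chromatin genes with a median of 1328 and 24 of 25 signalling genes with a median of 5453. For 13 of 16 formative and primed genes the median was 5869, for 17 of 25 trophectoderm genes 7758 and for 12 of 25 endoderm genes 13338. Of all protein-coding genes, 62.7% had a region, with a median best rank of 7124. Esrrb, a nuclear receptor of naive pluripotency, held a domain in its gene body 135 kb from the annotated start. So did Etv5, an ETS factor of the formative and primed list, at 21.1 kb from its start. Both were chosen after their values were seen, and Etv5 was also among the 5 widest domains without H3K27ac in DP and Pdgfra+.

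H3K27ac of the domains was next read in DP and Pdgfra+ cells. A consensus H3K27ac region of DP overlapped 184 domains (61.3%), where 28.9% of all 23570 consensus regions were called. For Pdgfra+ cells the count was 141 (47%), where 18.4% of all regions were called. Both populations shared 138 domains, 46 were called in DP alone, 3 in Pdgfra+ alone and 113 (37.7%) in neither, where 70.6% of all regions were called in neither. Wide regions offer more bases to overlap, and the next 300 regions by width gave 162 in DP, 119 in Pdgfra+ and 135 in neither. The DP count rests on replicates 1 and 3. With a library left out, a consensus region needed a peak in both remaining libraries, a stricter rule. Without DP replicate 1 or 3 the DP share was then 33.7%. Replicate 2, the shortest DP list, had a peak in only 33.3% of the domains. For Pdgfra+ cells the lowest share with a library left out was 39.3%.

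By library, H3K27ac peaks covered 29.4, 10.3 and 33.5% of the domain bases in DP replicates 1, 2 and 3, and 22.2, 13.2 and 19.5% in Pdgfra+ replicates. The populations overlapped, with the lowest value in DP replicate 2, the shortest list. Mean cover was 24.4% ± 12.4 (SD, n = 3) in DP and 18.3% ± 4.64 (SD, n = 3) in Pdgfra+, a difference of 6.10 points (exact permutation test, two-sided, adjusted p = 0.80 over 8 tests). The smallest possible p of this test and of the next is 0.10, so neither could pass the threshold of 0.05 at any difference. Relative to the other consensus regions, cover was 1.29 ± 0.0584 times as high in DP and 1.32 ± 0.301 times as high in Pdgfra+ (SD, n = 3, exact permutation test, adjusted p = 1).

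Cover of the domains exceeded that of the other consensus regions in 6 of 6 DP and Pdgfra+ H3K27ac libraries, by 4.96 points on average (21.3 against 16.4%, exact sign-flip test, adjusted p = 0.0417 over 4 tests). This direction depended on how the domains were built. It turned to -6.20 and -6.94 points when Oct4+ replicate 1 or 2 was left out of the choice of domains, and to -1.57 points against the next 300 regions.

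The 5 domains with H3K27ac in all 6 DP and Pdgfra+ libraries and the highest mean cover lay at Malat1, Myh9, Ptpn14, Shb and near Epha2. In Oct4+ replicates, H3K27ac covered 75.1, 80.6 and 9.33% of the Shb domain and 85.7, 78 and 17.1% of the Ptpn14 domain. Near Epha2 it covered 100, 91.1 and 38.7%. The low value at each was that of replicate 3, the shortest Oct4+ list. All 3 domains were widely covered in DP and Pdgfra+ cells. The Malat1 domain (rank 278, chr19:5799672-5813894), at a long non-coding RNA gene, had 79.1, 86.4 and 52.3% of its bases covered in Oct4+ replicates, 100, 51.9 and 97.5% in DP and 100, 81.3 and 99.2% in Pdgfra+. The Myh9 domain (rank 21, chr15:77812344-77838277), in the gene of a non-muscle myosin heavy chain, had 79.1, 84.4 and 53.6% in Oct4+, 83.8, 79.3 and 100% in DP and 89.3, 73.2 and 100% in Pdgfra+. At both, cover in DP and Pdgfra+ cells overlapped or exceeded that in Oct4+ cells. Mean cover over the 6 libraries was 84.3% at Ptpn14, a tyrosine phosphatase gene, 81.9% at Shb, an adaptor protein gene, and 80.6% at the domain 6.5 kb from the start of Epha2, an ephrin receptor gene.

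The Mir290-Mir295 domain (rank 14, chr7:3197215-3224878) kept H3K27ac in all 6 libraries. Cover was 97.1, 91.2 and 84.8% in Oct4+ replicates, 77.9, 25.4 and 50.3% in DP and 15.2, 14.7 and 70.8% in Pdgfra+. The Oct4+ values lay above all others, and the DP and Pdgfra+ values overlapped. The cluster encodes microRNAs abundant in embryonic stem cells. RefSeq placed 17 mature microRNAs of 9 hairpin genes in the domain, and the members below are grouped by their seed (bases 2 to 8, in capitals), which pairs with target RNAs. The first 3 share AAGUGCU, the next 2 differ from it in the last base of the seed, and the last 3 share CUCAAAC.
miR-291a-3p: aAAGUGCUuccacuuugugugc
miR-294-3p: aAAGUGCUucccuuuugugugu
miR-295-3p: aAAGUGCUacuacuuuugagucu
miR-290a-3p: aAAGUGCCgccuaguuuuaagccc
miR-291b-3p: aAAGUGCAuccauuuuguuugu
miR-290a-5p: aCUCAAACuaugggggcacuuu
miR-292a-5p: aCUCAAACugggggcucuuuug
miR-293-5p: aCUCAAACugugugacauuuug

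At the other end, 73 domains had no H3K27ac peak in any of the 6 DP and Pdgfra+ libraries, and 83 had one in all 6. These 2 counts were not made over the other regions. By the consensus rule, 37.7% of the domains, 45% of the next 300 regions and 70.6% of all consensus regions were in neither population. The 5 widest domains without a peak lay in Spred2, an inhibitor of RAS-ERK signalling (rank 8), Sptlc2, a subunit of serine palmitoyltransferase (rank 36), Etv5 (rank 45), at Aldh2, a mitochondrial aldehyde dehydrogenase (rank 48), and in Ppp2r5c, a regulatory subunit of protein phosphatase 2A (rank 56). H3K27ac covered 100, 86.9 and 43.5% of the Etv5 domain (chr16:22395917-22418667) in Oct4+ replicates and 53.2, 83.8 and 26.5% of the Spred2 domain (chr11:19945966-19974957). H3K4me1 was listed in DP at 4 of these 5, all but Aldh2. In Spred2 it covered 0, 71.2 and 32.4% in Oct4+, 6.99, 34.0 and 21.3% in DP and 0% in each Pdgfra+ library. At Ppp2r5c it reached 7.36 and 27.5% in Pdgfra+ replicates 1 and 3. At Aldh2 it covered 20.3, 45.1 and 20.3% in Oct4+ and 9.21% in Pdgfra+ replicate 3.

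Klf2, the widest domain holding a list gene (rank 5, chr8:72307129-72340320), had 76.6, 97.3 and 61.9% of its bases covered by H3K27ac in Oct4+ replicates, 15.6, 14.3 and 15.8% in DP and 0, 7.32 and 0% in Pdgfra+. The 3 populations did not overlap in H3K27ac. H3K4me1 covered 17.1, 78.1 and 36.1% in Oct4+, 0, 0 and 6.54% in DP and none in Pdgfra+. H3K27me3 ran the other way, with no peak in Oct4+, 0, 28.0 and 18.1% in DP and 0, 13.2 and 34.7% in Pdgfra+. Replicate 1 thus listed no H3K27me3 there in any population.

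The Tet1 domain (rank 31, chr10:62883282-62907748) had 89.8, 89.8 and 49.4% covered by H3K27ac in Oct4+, 16.4, 7.57 and 9.32% in DP and 0, 8.87 and 16.3% in Pdgfra+, with no H3K27me3 peak in any library. The Uhrf1 domain (rank 214, chr17:56299279-56314605), which also holds the start of Arrdc5, overlapped between populations, at 46.4, 84.7 and 9.72% in Oct4+, 24.6, 0 and 30.2% in DP and 42.7, 15.1 and 38.6% in Pdgfra+. The domain 5.44 kb from Suz12 (rank 252, chr11:79973025-79987662) had no H3K27ac peak outside Oct4+ cells, where cover was 78.9, 94.2 and 26.1%. Near Smarcad1 (rank 6, chr6:64997448-65029344), cover was 77.7, 82.3 and 55.4% in Oct4+, 17.5, 0 and 10.7% in DP and 0, 0 and 6.39% in Pdgfra+.

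The Esrrb domain (rank 99, chr12:86496147-86515151) had 71.3, 100 and 64% covered by H3K27ac and 28.9, 85.9 and 46.7% by H3K4me1 in Oct4+ replicates. Neither mark was listed there in any DP or Pdgfra+ library. H3K27me3 was listed in 1 library, at 61.3% in Pdgfra+ replicate 3.

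**Figure D2:**
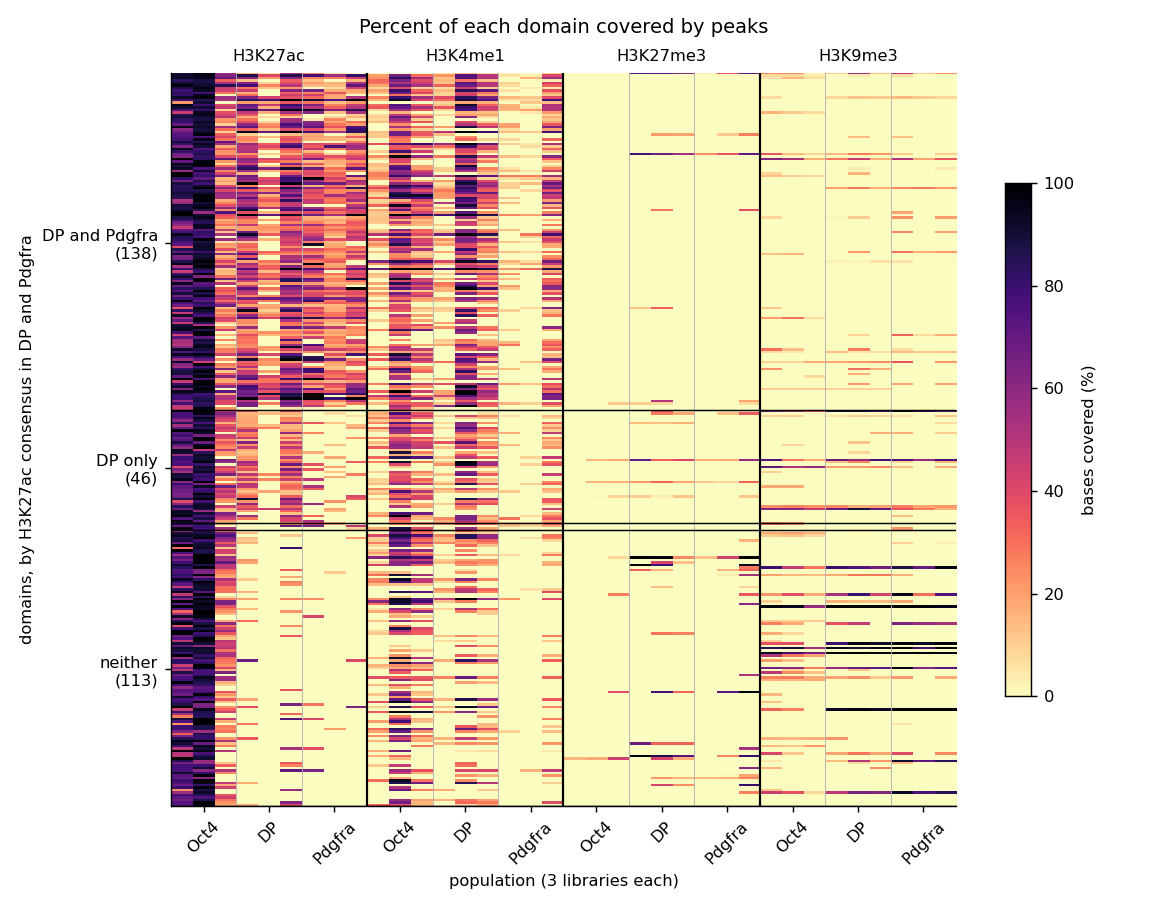
Percent of the bases of each of the 300 domains (rows) covered by listed peaks in each of 36 libraries (columns, 3 per population and mark), with rows grouped by H3K27ac consensus in DP and Pdgfra+ cells. H3K4me1 is sparser in the 113 domains in neither than in the 138 shared by both, and H3K27me3 and H3K9me3 peaks stand at a minority of domains.

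Among the 10 widest domains not yet described, H3K27ac ranged from wide cover in all 9 libraries to a single DP or Pdgfra+ library with a peak, and H3K27me3 was not listed at ranks 2, 4, 7, 9 and 10. The Fam25c, Sncg and Mmrn2 domain (rank 2, chr14:34339142-34383663), which holds the starts of a gamma-synuclein and a multimerin gene, kept 86.6, 41.3 and 86.2% in DP and 78.7, 54.9 and 80.9% in Pdgfra+, with 91.5, 95.1 and 62.8% in Oct4+. In Tns3, a tensin of focal adhesions (rank 4, chr11:8564569-8598308), cover was 92.9, 94.8 and 69.9% in Oct4+, 62.4, 21.4 and 61.2% in DP and 26.3, 26.2 and 44.0% in Pdgfra+. The Sh3tc1 domain (rank 7, chr5:35702088-35731502) had a mean of 12.7% over the 6 DP and Pdgfra+ libraries. The domains 83.9 kb from Tmem17 (rank 9, chr11:22596036-22625011) and 8.67 kb from Mkrn1 (rank 10, chr6:39429130-39457533) each had H3K27ac in 1 of the 6, at 14.6% and 11.5%. Near Mkrn1, H3K4me1 nevertheless covered 25.9, 84.3 and 58.3% in DP and 0, 0 and 29.2% in Pdgfra+, against 40.7, 89.8 and 77.2% in Oct4+.

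Domains that held a gene start had H3K27ac in DP and Pdgfra+ cells more often than the rest. A consensus region of DP overlapped 90.2% of the 102 domains with a start, 49.4% of the 158 in gene bodies and 35% of the 40 outside genes, and for Pdgfra+ cells the shares were 70.6, 36.1 and 30%. The order was not particular to the domains. Over all consensus regions with a start, in gene bodies and outside genes, the shares were 74.9, 15.2 and 8.84% in DP and 49.0, 9.52 and 4.75% in Pdgfra+, and over the next 300 regions 82.9, 47.3 and 28.6% and 69.5, 32.0 and 16.3%. Only 10 domains with a start were in neither, among them those of Aldh2, Lemd1 and Adgrg1. H3K4me1 of DP showed no such order, at 62.7, 58.9 and 60%.

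**Figure D3:**
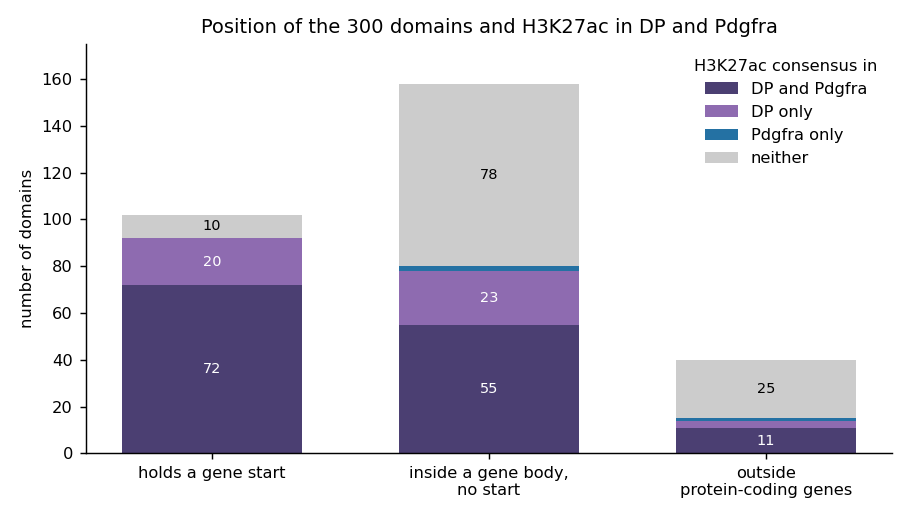
Number of domains that hold a protein-coding gene start, lie in a gene body without a start or lie outside protein-coding genes, stacked by H3K27ac consensus in DP and Pdgfra+ cells. Of the domains with a start 72 of 102 were called in both populations, and of those in gene bodies 78 of 158 were called in neither.

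The same pattern stood within the domains. The parts within 1 kb of a start, 4.55% of the domain bases, were covered by H3K27ac more than the remaining parts in 6 of 6 DP and Pdgfra+ libraries, at 59.4 against 19.5% on average (difference 39.9 points, exact sign-flip test, adjusted p = 0.0417 over 4 tests, smallest possible p 0.0312). The call was lost with domains that had a peak in all 3 Oct4+ libraries and with domains of highest total signal, although the difference was no smaller there. It was also lost with a common minimum of signal, where the difference was 25.2 points. Leaving out any DP or Pdgfra+ library lost it too (exact sign-flip test, adjusted p = 0.0833). The direction stayed in each case. At the smallest possible p of 6 libraries, H3K27ac passed only where other marks of the family also had low p-values. With 5 libraries it could not pass. Cover near starts was 76.8, 38.5 and 76.1% in DP replicates and 54.7, 49.9 and 60.5% in Pdgfra+, against 27.1, 8.96 and 31.4% and 20.7, 11.4 and 17.5% elsewhere. H3K9me3 was lower near starts in 9 of 9 libraries, at 2.35 against 4.92% (difference -2.58 points, exact sign-flip test, adjusted p = 0.0156), and at -4.76 and -5.14 points with domains chosen without Oct4+ replicate 1 or 2. H3K27me3 was higher near starts in 8 of 9 libraries, at 2.44 against 1.66% (difference 0.78 points, exact sign-flip test, adjusted p = 0.0156). It lost the call with domains that had a peak in all 3 Oct4+ libraries (0.29 points, exact sign-flip test, adjusted p = 0.0781), and measured 0.34 points with domains chosen without Oct4+ replicate 1 (exact sign-flip test, adjusted p = 0.0417). H3K4me1 was lower near starts in 8 of 9 libraries, at 14.7 against 19.0%, a difference that did not pass (exact sign-flip test, adjusted p = 0.137) and that passed without DP replicate 2, the exception (-5.75 points, exact sign-flip test, adjusted p = 0.0104).

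**Figure D4:**
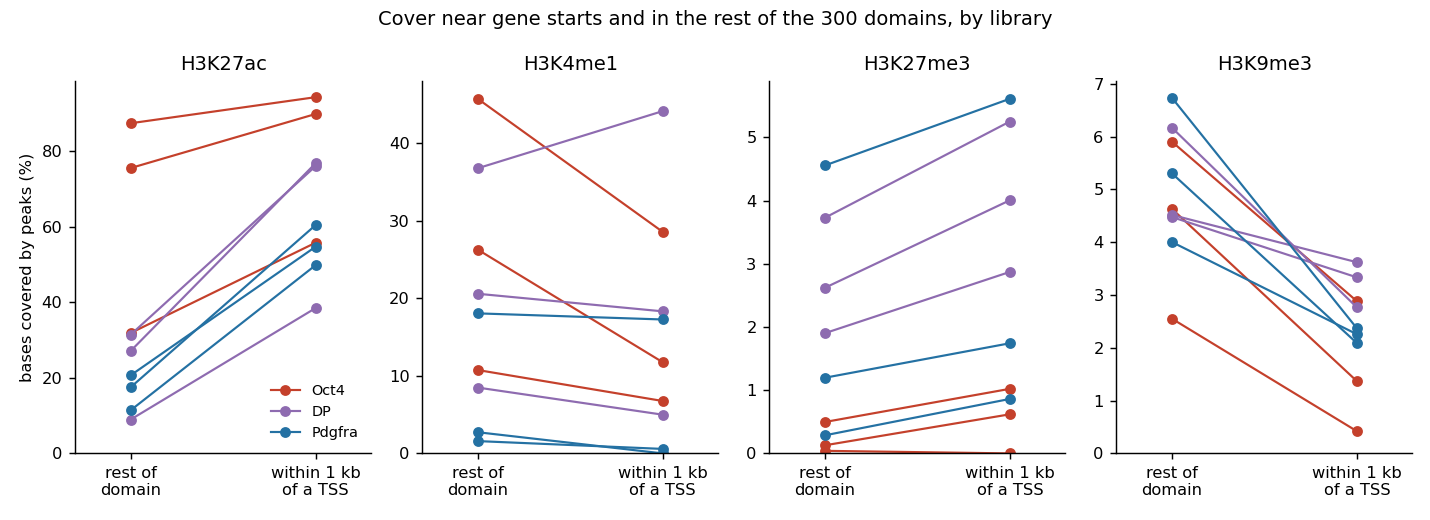
Percent of bases covered by listed peaks within 1 kb of a protein-coding gene start and in the rest of the 300 domains, with 1 line per library and a panel per mark on its own scale. H3K27ac lines rise towards the start in all 9 libraries, Oct4+ ones included, and H3K9me3 lines fall in all 9.

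H3K4me1 was not used to choose the domains, although both marks were read in the same sorted populations and were listed together at many domains. A consensus H3K4me1 region overlapped 205 domains (68.3%) in Oct4+, 181 (60.3%) in DP and 72 (24%) in Pdgfra+, where 19.5, 17.6 and 4.1% of all consensus regions were called. The next 300 regions gave 173, 159 and 57. The shares fell to 41.3% in Oct4+ and 38% in DP without replicate 2, and to 13.3 and 6.33% in Pdgfra+ without replicate 1 or 3. Both remaining libraries then had to hold a peak, a stricter rule. By bases, H3K4me1 covered 10.6, 45 and 25.6% of the domains in Oct4+ replicates, 8.34, 37.1 and 20.5% in DP and 2.61, 1.54 and 18.0% in Pdgfra+. The spread within a population was as wide as that between populations (exact permutation test, adjusted p = 0.557 over 8 tests), and Pdgfra+ replicate 3 alone reached the values of the others, with 10620 peaks against 1723 and 1074. H3K4me1 cover exceeded that of the other consensus regions in 9 of 9 libraries, at 18.8 against 9.53% (difference 9.29 points, exact sign-flip test, adjusted p = 0.00781). Against the next 300 regions the difference was 1.48 points (exact sign-flip test, adjusted p = 0.0547). Relative to the other regions, cover was 2.06 ± 0.138 times as high in Oct4+, the highest, and did not differ between populations beyond the spread (SD, n = 3, exact permutation test, adjusted p = 1).

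H3K4me1 varied with H3K27ac among the domains. Of the 138 domains with H3K27ac in both populations, 107 (77.5%) had a consensus H3K4me1 region in DP and 54 (39.1%) in Pdgfra+. Of the 113 domains in neither, 43 (38.1%) had one in DP, 7 (6.19%) in Pdgfra+ and 61 (54.0%) in Oct4+. In these 113, H3K4me1 covered 4.25, 18.1 and 10.8% of bases in DP replicates and 0.37, 0.26 and 5.53% in Pdgfra+, against 8.76, 39.2 and 21.5% in Oct4+. The 43 with a consensus H3K4me1 region but no consensus H3K27ac region in DP included 3 with a consensus H3K27me3 region and 40 without. Some of the 113 still held H3K27ac peaks that did not meet the consensus rule. Such peaks covered 3.82, 0 and 7.26% of their bases in DP replicates. No consensus region of H3K4me1, H3K27me3 or H3K9me3 was called at 49 of the 113 in DP and at 84 in Pdgfra+. Over all consensus regions, with or without H3K27ac in DP or Pdgfra+, H3K4me1 was called at 17.6% in DP, 4.1% in Pdgfra+ and 19.5% in Oct4+. In DP and Pdgfra+ the shares of the 113 lay below those of the 138 and above these. The other regions were not split by class.

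**Figure D5:**
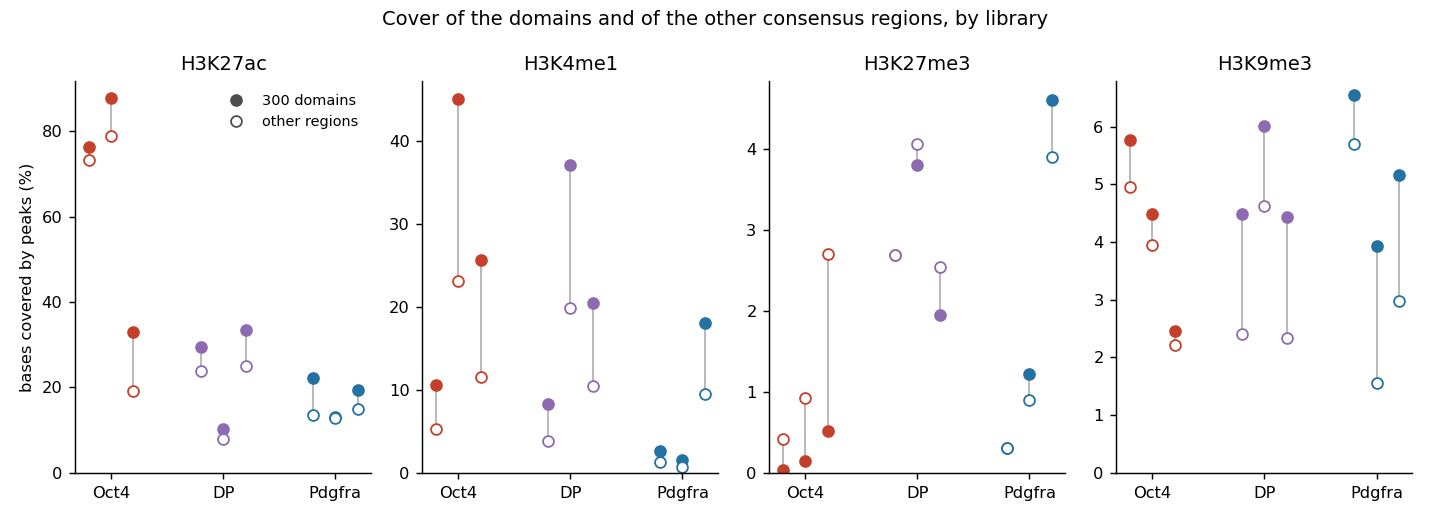
Percent of bases covered by listed peaks in the 300 domains (filled points) and in the other 23270 consensus regions (open points), with 1 pair of points per library, grouped by population, and a panel per mark on its own scale. H3K4me1 and H3K9me3 pairs lie higher in the domains in 9 of 9 libraries, and H3K27me3 pairs lie lower in the domains in Oct4+ and higher in Pdgfra+.

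Few domains carried H3K27me3. The domains were admitted through H3K27ac in Oct4+ cells, so the Oct4+ level of H3K27me3 is not free of that choice. A consensus region overlapped 6 domains (2%) in Oct4+, 23 (7.67%) in DP and 15 (5%) in Pdgfra+, where 1.98, 4.83 and 2.39% of all consensus regions were called. The shares were 0.667% in Oct4+ without replicate 3, 4 and 4.67% in DP without replicate 2 or 3, and 2.67 and 2% in Pdgfra+ without replicate 2 or 3. Each of these shares required a peak in both remaining libraries. With domains chosen without Oct4+ H3K27ac replicate 1 the Oct4+ share was 1%, and without replicate 2 the Oct4+ share was 0.333% and the DP share 4.67%. By bases, H3K27me3 covered 0.039, 0.15 and 0.52% of the domains in Oct4+ replicates, 2.68, 3.8 and 1.95% in DP and 0.31, 1.22 and 4.60% in Pdgfra+. All 3 DP values lay above the Oct4+ values, while Pdgfra+ replicate 1 lay within their range, and the percent cover did not differ beyond the spread (exact permutation test, adjusted p = 0.505). Relative to the other consensus regions, however, cover was 0.15 ± 0.0513 in Oct4+, 0.90 ± 0.119 in DP and 1.19 ± 0.163 in Pdgfra+ (SD, n = 3 each, exact permutation test, adjusted p = 0.0286), with no overlap between the populations. The Oct4+ libraries, with the lowest values, enter this test, so its result is not free of the choice of domains either. By the same exact test, the call was lost when any DP replicate or Pdgfra+ replicate 2 was left out (adjusted p = 0.0571), when domains were rebuilt without Oct4+ H3K27ac replicate 1 (adjusted p = 0.0571), and against the next 300 regions (adjusted p = 0.571), which had little H3K27me3 in Oct4+ as well, at 0.083, 0.095 and 0.89%. It was also lost with domains that had a peak in all 3 Oct4+ libraries, with the domains of highest total signal, with measured lists of equal length and with the replicate number as a block (exact permutation test within numbers, adjusted p = 0.111). The difference between the highest and lowest population, 1.04 here, was 2.06 and 1.98 with domains chosen without Oct4+ replicate 1 or 2.

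Of 25 domains with a consensus H3K27me3 region in DP or Pdgfra+, 20 had none in Oct4+ and 12 had an H3K27ac consensus region in DP or Pdgfra+ besides. Over all consensus regions, only 1.98% had H3K27me3 in Oct4+, so its absence there was the common state. H3K27ac was called at 28.9% of all regions in DP and 18.4% in Pdgfra+. The 20 and 12 were not counted over the other regions. The 5 domains with the highest mean H3K27me3 cover were at Lemd1, Adgrg1, Hjurp and Trpm8, Mroh2a, and in Crocc2. The Lemd1 domain (rank 64, chr1:132189545-132210554), which also holds Mir135b, was covered by H3K27ac at 75.9, 100 and 56.8% and by H3K4me1 at 61.7, 84.4 and 77.1% in Oct4+ replicates, and neither mark was listed in DP or Pdgfra+. H3K27me3 there was 0, 0 and 8.48% in Oct4+, 100, 96.3 and 24.8% in DP and 12.9, 42.9 and 100% in Pdgfra+. The Adgrg1 domain (rank 264, chr8:94973628-94988058), at an adhesion G protein-coupled receptor gene, had H3K27me3 at 100, 87.6 and 73.3% in DP and 0, 25.6 and 80.6% in Pdgfra+ and none in Oct4+. It had no H3K27ac in Oct4+ replicate 3.

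The widest domain (rank 1, chr1:88223163-88270618, 47456 bp, at Mroh2a) and its neighbour at Hjurp, a histone chaperone of centromeres, and Trpm8, a cold-sensing channel (rank 59, chr1:88271487-88292737), carried listed peaks of several marks at once. At rank 1, H3K27ac covered 89.0, 98.8 and 57.4% in Oct4+, 17.0, 6.96 and 50.3% in DP and 27.8, 5.76 and 0% in Pdgfra+. H3K27me3 covered none of it in Oct4+, 71.6, 70.1 and 58.5% in DP and 4.29, 37.0 and 68.0% in Pdgfra+. H3K9me3 covered 24.3, 23.0 and 1.57% in Oct4+, 11.7, 53.5 and 14% in DP and 49.6, 11.1 and 23.4% in Pdgfra+. Consensus regions of all 4 marks overlapped 0 domains in Oct4+, 1 in DP and 1 in Pdgfra+, which was not counted over the other regions.

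H3K9me3 overlapped a small group of domains in every population. A consensus region was called at 45 domains (15%) in Oct4+, 34 (11.3%) in DP and 38 (12.7%) in Pdgfra+, where 7.74, 5.35 and 5.55% of all consensus regions were called. These came to 61 domains in all, of which 24 were called in all 3 populations. Neither of these counts was made over the other regions. The Pdgfra+ share fell to 7 and 7.67% without replicate 1 or 3, where a peak was required in both remaining libraries. Cover was 5.77, 4.49 and 2.46% of the domain bases in Oct4+ replicates, 4.48, 6.02 and 4.43% in DP and 6.54, 3.93 and 5.16% in Pdgfra+, and the populations overlapped (exact permutation test, adjusted p = 0.914). Cover exceeded that of the other consensus regions in 9 of 9 libraries, at 4.81 against 3.42% (difference 1.39 points, exact sign-flip test, adjusted p = 0.00781). Against the next 300 regions, which had 33, 29 and 30 calls in Oct4+, DP and Pdgfra+, the difference was 0.57 points (exact sign-flip test, adjusted p = 0.0156). The call was lost with domains that had a peak in all 3 Oct4+ libraries (0.91 points, exact sign-flip test, adjusted p = 0.0677), and the difference was 2.55 and 3.13 points with domains chosen without Oct4+ replicate 1 or 2.

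The 3 domains with the highest H3K9me3 cover in DP and Pdgfra+ had no listed H3K27ac peak in those populations. They lay at the start of the assembled sequence of chromosome 3 (rank 145, chr3:3000032-3017118), near the start of chromosome 17 (rank 100, chr17:3004591-3023576) and in Zfp981, a zinc finger gene (rank 223, chr4:146519143-146534269). The chromosome 3 domain had H3K9me3 at 93.3, 77.9 and 66.4% in Oct4+, 99.8, 100 and 99.7% in DP and 99.8, 100 and 99.8% in Pdgfra+, beside H3K27ac at 79.8, 91.6 and 51.6% in Oct4+. In Zfp981, H3K9me3 was 33.0, 25.8 and 0.126% in Oct4+, 94.0, 97.6 and 93.6% in DP and 100% in each Pdgfra+ replicate. The Itln1 and Cd244a domain (rank 3, chr1:171524937-171566988), genes of a lectin and an immune receptor, carried both marks, with H3K27ac at 94.7, 94.6 and 45.3% in Oct4+ and 38.3, 0 and 41.5% in DP, and H3K9me3 at 65.8, 54.9 and 37.5% in Oct4+, 88.5, 85.6 and 74.8% in DP and 95.0, 78.7 and 71.1% in Pdgfra+. Repeat-masked bases made up a median of 25.1% of the 61 domains with H3K9me3 and 19.5% of the other 239. The domains on chromosomes 17 and 3 and in Zfp981 lay above that median, at 51.1, 37.8 and 30.7%. The part of repeated sequence in these peaks was not tested.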

How the data were processed

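Peak lists of 36 CUT&Tag libraries were used. According to the submitters' processing notes and the study's methods, reads were demultiplexed with bcl2fastq 2.19.1, aligned to mm10 with Bowtie2, handled with SAMtools 1.12 and bedtools 2.26.0, and called per library against IgG with SEACR in stringent mode. The deposited lists give each interval's total and maximum signal (fragment coverage summed over bases, whole numbers not scaled to depth). The sources used here do not state the SEACR normalization setting. Sequencing depth is unknown. The 3 IgG samples were not analysed here.

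Peaks that overlapped or touched were merged, and consensus regions had a peak in at least 2 of 3 libraries. Where a library was left out, a peak was required in both of the 2 remaining ones. A domain was called for a mark when a consensus region overlapped it by at least 1 base. Cover was the percent of bases under the peaks of a library, and relative cover was the ratio of cover in the domains to cover in the other consensus regions. Signal was used only to rank peaks in alternatives and to centre sequence windows. Gene starts, 1 per gene, came from GENCODE vM21 and sequence from GRCm38.p6. The members and lists were chosen with earlier results of these data known.

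Libraries were the unit of all tests. Populations were compared by exact permutation of the F statistic (1680 assignments, smallest possible p 0.00357) or, for 2 populations, of the difference in means (20 assignments). Differences within a library were compared by exact sign-flip tests (512 patterns for 9 libraries, 64 for 6). P-values were adjusted by the Benjamini-Hochberg method in families of 8, 4 and 4 tests, at a threshold of 0.05. Named domains were the 10 widest, those within 20 kb of a listed gene, the 5 widest without H3K27ac in DP and Pdgfra+, the 5 of highest H3K27ac cover, the 5 of highest H3K27me3 cover and the 3 of highest H3K9me3 cover. Those of Esrrb and Etv5 were also added after values were seen. Python 3.11.15, NumPy 2.4.6, pandas 2.3.3, SciPy 1.17.1 and Matplotlib 3.10.9 were used, and the functions were tested on simulated data.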

Additional observations from a re-analysis of the deposited data

Results flagged for a closer look

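H3K27me3 cover of the domains minus that of the other consensus regions was below 0 in all 3 Oct4+ libraries and above 0 in all 3 Pdgfra+ libraries, and the means differed by -1.46 points (Oct4+ minus Pdgfra+). All 3 DP libraries were below 0 as well, with a mean difference of -0.631 points relative to Pdgfra+, although DP replicate 1 lay at -0.0041 points and Pdgfra+ replicate 1 at 0.0091 points, both close to 0. These differences of differences were not tested. The ratio of the same covers was tested across the populations and is given above, with the limit that Oct4+ cells also chose the domains.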

How the results depend on the processing

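Values below are differences in points (cover of the domains against the other regions, or of parts near a TSS against the rest) or in relative cover between populations, with exact tests throughout. With a peak in all 3 Oct4+ libraries, H3K27ac against the other regions turned to -7.20, H3K27me3 to 0.44, relative H3K27ac cover to 0.029 and relative H3K4me1 cover to -0.029, while H3K27ac near TSS (41.3), relative H3K27me3 (1.88), H3K27me3 near TSS (0.29) and H3K9me3 against the others (0.91) lost their calls. With the 500 widest regions, H3K27me3 against the others passed at -0.54. With the 300 of highest total signal it passed at -0.67, relative H3K27ac cover turned to 0.018, and H3K27ac near TSS (40.1), relative H3K27me3 (0.995) and H3K27me3 near TSS (0.20) lost their calls. With nearby regions stitched, as is usual for super-enhancers, relative H3K27ac (0.029), relative H3K4me1 (-0.21) and H3K4me1 near TSS (1.19) turned, H3K27me3 against the others passed at -1.01, H3K27ac (0.66) and H3K9me3 (0.49) lost their calls, and H3K27ac was called at 71.3% of domains in Pdgfra+ and at 16.7% in neither. With domains from Oct4+ lists of equal length, relative H3K27ac (0.031), H3K27ac against the others (-6.28), relative H3K4me1 (-0.042) and H3K27me3 against the others (0.31) turned.

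With measured lists of equal length, relative H3K27ac (0.18) and H3K27me3 against the others (0.23) turned, H3K4me1 near TSS passed at -3.48, relative H3K27me3 lost its call at 1.38, and H3K27ac was called at 38.3% of domains in DP and at 59% in neither. With the stronger peaks alone, cut at the median signal, H3K4me1 near TSS passed at -4.22 and H3K27me3 against the others turned to 0.064. With a common minimum of total signal, relative H3K27ac (0.17) and H3K27me3 against the others (0.041) turned, H3K27ac (25.2) and H3K27me3 (0.34) near TSS lost their calls, and H3K27ac was called at 40% of domains in DP. Counting domains with at least 1 peak, relative H3K4me1 (-0.15), H3K27me3 against the others (1.51) and percent H3K9me3 (-3.44) turned. Against the next 300 regions by width, relative H3K27ac (0.044), H3K27ac (-1.57), H3K27me3 (0.29) and relative H3K9me3 (-0.053) turned, and H3K4me1 (1.48) and relative H3K27me3 (0.61) lost their calls. The causes were not tested.

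With the replicate block (exact tests with populations permuted within a replicate number, or signs flipped together for libraries of 1 number), values stayed as they were and all 7 calls were lost (H3K27ac 4.96 and 39.9, H3K4me1 9.29, H3K27me3 1.04 and 0.78, H3K9me3 1.39 and -2.58), since the smallest p of the sign-flip tests is then 0.25, and relative H3K27me3 had adjusted p = 0.111. Same-numbered libraries deviated together by a correlation above 0.1 in 0 of 9 pairs for H3K27ac, 4 of 9 for H3K4me1, 5 of 9 for H3K27me3 and 1 of 9 for H3K9me3. Among pairs of different number the counts were 2, 4, 6 and 5 of 18. The share was higher for same numbers in H3K4me1 and H3K27me3 and lower in H3K27ac and H3K9me3. All 3 same-numbered Oct4+ and Pdgfra+ pairs exceeded 0.1 for H3K27me3 (0.334, 0.114 and 0.319). These correlations do not settle whether a number pairs the libraries. The main tests took the libraries as unpaired by number, and their calls rest on that choice.

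Leaving out a library gave 37.1 to 43.6 for H3K27ac near TSS and -6.94 to 5.89 for H3K27ac against the others (both with adjusted p = 0.0833 in the exact test once a DP or Pdgfra+ library is dropped, as 5 libraries cannot go below p = 0.0625), -0.17 to 0.13 for relative H3K27ac, -0.031 to 0.15 for relative H3K4me1, -5.75 to -2.68 for H3K4me1 near TSS, -0.48 to 0.58 for H3K27me3 against the others, 0.91 to 2.06 for relative H3K27me3 and 33.7 to 63.3% for H3K27ac in DP. Of 411 recomputed values that answer a comparison, 324 kept direction and side of the threshold (shares of domains: stayed within 1.5 times). Of 135 shares for the other marks, 39 moved by over 1.5 times, 32 of them lower and 7 higher. Shares with a library of that mark left out required a peak in both remaining libraries, which can only lower them or leave them unchanged. Depth is unknown, so absent peaks limit every count.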
